A study of Mus musculus with 11 samples.

Results

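The kidney proximal tubule (PT) recovers filtered amino acids with a set of membrane carriers, and 10 of their genes are described here across the tubular cells of injured and uninjured mouse kidneys. They were set by a list of names (*Slc3a1*, *Slc7a9*, *Slc7a13*, *Slc6a19*, *Slc6a18*, *Slc1a1*, *Slc3a2*, *Slc7a7*, *Slc7a8* and *Slc16a10*). The rule used no measured value, but the list was made with earlier results of these data known. All 10 were found among the 28692 genes of the single-cell RNA count tables. The samples were 11 libraries of whole-kidney cell suspensions from male C57Bl/6 mice, with no transgene or deletion named for any group. The injuries were made at 10 weeks of age, and the paper describes the controls as equal in age. Control kidneys were naive and gave 5 libraries (Ctrl, N1, N2, AN1 and AN2). Unilateral ischemia-reperfusion (UIR) was made by a clamp on the left renal pedicle, held 30 minutes with the animal at 37 °C, and unilateral ureteral obstruction (UUO) by permanent ligation of the left ureter. Each gave 3 libraries from 3 mice, harvested at Day 28 (UIR, UIR1 and UIR2, and UUO, UUO1 and UUO2). The controls were not operated on, and the labels do not say which mouse gave which library, so that the p-values measure the spread between these libraries.

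Epithelial amino acid transport works in series. Carriers in the apical brush border take amino acids up from the filtrate, either by cotransport with sodium or by exchange, and a second set in the basolateral membrane passes them on to the blood. Several of these carriers are heterodimers, in which a heavy chain of the SLC3 family brings a light chain of the SLC7 family, the actual transporter, to the membrane. Inherited loss of single members is known to cause cystinuria, Hartnup disorder, dicarboxylic aminoaciduria and lysinuric protein intolerance.

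Each library held 49503312 to 117043590 UMIs (unique molecular identifiers, which count captured transcripts), with UUO libraries the lowest (49503312 to 60918546). After removal of barcodes with over 30% mitochondrial UMIs and of predicted doublets, 40584 cells were kept of 86429 called. The mitochondrial limit took 56.9% to 78.7% of the called barcodes of controls, 23.8% to 37.4% of those of UIR and 3.15% to 8.03% of those of UUO. Cells of PT clusters in sub-clusters led by markers of other classes (52 in controls, 1154 in UIR and 90 in UUO) were left out of the PT. The PT cells that remained made up 65.6% to 69.7% of kept control cells, 6.32% to 12.5% in UIR and 0.454% to 1.34% in UUO, or 6978, 1574 and 95 cells. Of the markers that define the PT, *Lrp2* (megalin) had a mean level of 1554 UMIs per 1000000 UMIs of the summed cells (CPM) in controls, 1466 in UIR and 1335 in UUO. That of the phosphate carrier *Slc34a1* was 2749, 2237 and 1982. Since the PT was named by its defining markers, these levels describe the pools and do not test the label. The UUO pools were small, at 20, 24 and 51 cells and 25165, 174096 and 231587 UMIs, against at least 2431993 in any other PT pool. At most 17 barcodes were shared by any pair of libraries.

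The apical members lie on different chromosomes, except for 1 pair (GENCODE annotation of GRCm38). *Slc6a18* (chr13:73661752-73678023) and *Slc6a19* (chr13:73679745-73704865) are neighbors on the minus strand, 1.72 kb apart. *Slc3a1* lies at chr17:85028376-85064236 (plus strand), *Slc7a9* at chr7:35448796-35466036 (plus), *Slc7a13* at chr4:19818725-19842218 (plus) and *Slc1a1* at chr19:28835049-28913960 (plus). Of the basolateral members, *Slc7a7* (chr14:54369442-54417780) and *Slc7a8* (chr14:54722209-54781946) share the minus strand of chromosome 14 at a distance of 304 kb, *Slc3a2* lies at chr19:8706882-8723369 (minus) and *Slc16a10* at chr10:40033532-40142258 (minus).

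Promoter windows of 250 bases upstream of annotated starts (RefSeq, GRCm38.p6) were at hand for 8 of the 10 genes, in 13 windows, and not for *Slc6a18* and *Slc7a13*. They were searched on both strands for letters of sites of the PT transcription factors HNF1 (GTTAAT, the first part of its palindrome) and HNF4 (CAAAGTCCA), and no member window held both. GTTAAT was in 2 member windows (*Slc16a10* and *Slc7a7*) and in 6.43% of all 32851 promoters, and CAAAGTCCA was in 1 member window (*Slc3a1*) and in 0.384% of all. The 4 windows shown are of genes at opposite ends of the segment pattern described next, *Slc3a1* with its level highest in S3-like cells and *Slc6a19* and *Slc7a7* with theirs highest in S1-like cells. The windows hold no annotated exon of the gene, sequences run 5′ to 3′ on the gene's strand, and capitals mark a motif, which is a match of letters only.
Slc3a1 (chr17:85028097-85028346, plus strand, CAAAGTCCA 39 bases before the start): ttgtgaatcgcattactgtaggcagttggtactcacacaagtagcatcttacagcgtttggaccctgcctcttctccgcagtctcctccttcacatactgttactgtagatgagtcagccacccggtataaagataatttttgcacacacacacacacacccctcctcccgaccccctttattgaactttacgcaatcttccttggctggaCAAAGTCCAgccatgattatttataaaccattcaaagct
Slc6a19 (chr13:73692637-73692886, minus strand, no motif): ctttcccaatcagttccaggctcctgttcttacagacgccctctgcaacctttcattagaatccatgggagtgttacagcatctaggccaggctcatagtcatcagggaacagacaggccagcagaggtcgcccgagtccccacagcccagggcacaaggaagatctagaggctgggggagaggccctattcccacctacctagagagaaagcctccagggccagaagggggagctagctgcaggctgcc
Slc7a7, upstream start (chr14:54417945-54418194, minus strand, no motif): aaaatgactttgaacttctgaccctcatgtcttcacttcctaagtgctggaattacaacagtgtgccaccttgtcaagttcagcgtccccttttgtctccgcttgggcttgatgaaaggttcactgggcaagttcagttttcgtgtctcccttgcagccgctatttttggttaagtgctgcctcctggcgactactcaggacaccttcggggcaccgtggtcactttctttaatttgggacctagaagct
Slc7a7, downstream start (chr14:54409473-54409722, minus strand, GTTAAT 86 bases before the start): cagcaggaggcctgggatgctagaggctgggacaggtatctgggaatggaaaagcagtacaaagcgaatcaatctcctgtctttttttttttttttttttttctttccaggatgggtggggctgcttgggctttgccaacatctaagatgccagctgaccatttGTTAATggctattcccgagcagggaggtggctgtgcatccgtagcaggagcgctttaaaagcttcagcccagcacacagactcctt

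The *Slc6a19* window lies inside the longer gene span that GENCODE gives. CpG dinucleotides, whose density separates housekeeping-like from tissue-restricted promoters, had a median of 7 over the 13 windows and of 6 over all promoters. They were most frequent upstream of *Slc1a1* (27) and *Slc16a10* (21), and *Slc6a19* held 3.

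In control kidneys the 10 genes divided along the PT. Cells were grouped into S1-, S2- and S3-like clusters by other genes (early S1 markers such as *Slc5a2*, S2 markers such as *Slc22a6*), and none of the 10 was used for clustering. These clusters held 628, 2461 and 428 control cells, and 3461 PT cells fell into no segment. Since clusters and levels come from the same cells, the differences between segments are given without a test.

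Among the apical genes, *Slc3a1*, the heavy chain of the cystine and dibasic amino acid exchanger, was highest in S3-like cells, at 500, 473, 341, 493 and 518 CPM in Ctrl, N1, N2, AN1 and AN2, with 186 to 229 in S2-like and 87.0 to 135 in S1-like cells. Its light chain *Slc7a9* ran the other way, at 157 to 195 CPM in S1-like, 53.5 to 65.0 in S2-like and 13.8 to 28.3 in S3-like cells. The other light chain that pairs with *Slc3a1*, *Slc7a13*, was nearly absent from S1-like cells (2.78 to 13.9 CPM) and stood at 499 to 1053 in S2-like and 890 to 1321 in S3-like cells. For these 3 genes the ranges of S1- and S3-like cells did not overlap in the 5 control libraries, and both light chains of the same heavy chain were ordered oppositely.

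*Slc6a19*, the main sodium-coupled carrier of neutral amino acids, had 470 to 729 CPM in S1-like, 27.5 to 50.4 in S2-like and 0 to 12.1 in S3-like cells. Its neighbor *Slc6a18*, a related carrier for neutral amino acids, stood at 4.77 to 11 CPM in S1-like, 191 to 250 in S2-like and 210 to 492 in S3-like cells. The levels of the adjacent genes in S1- and S3-like cells were thus ordered oppositely in every control library. *Slc1a1*, the sodium-coupled carrier of glutamate and aspartate, was the even one, at 124 to 173 CPM in S1-like, 120 to 176 in S2-like and 118 to 191 in S3-like cells, with all 3 ranges overlapping.

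The 4 basolateral genes were all highest in S1-like cells. *Slc3a2*, the heavy chain of the basolateral exchangers, had 274 to 334 CPM there, 42.5 to 64.7 in S2-like and 11.2 to 37.6 in S3-like cells. Of its light chains, *Slc7a7* (export of cationic amino acids) had 250 to 318, 27.0 to 44.1 and 7.73 to 19.7 CPM, and *Slc7a8* (exchange of neutral amino acids) 238 to 283, 8.80 to 17.2 and 0 to 1.23 CPM. *Slc16a10*, a carrier of aromatic amino acids, had 49.2 to 80.5, 3.90 to 11.5 and 2.21 to 7.39 CPM, and its S2- and S3-like ranges overlapped, whereas those of the other 3 did not.

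**Figure D1:**
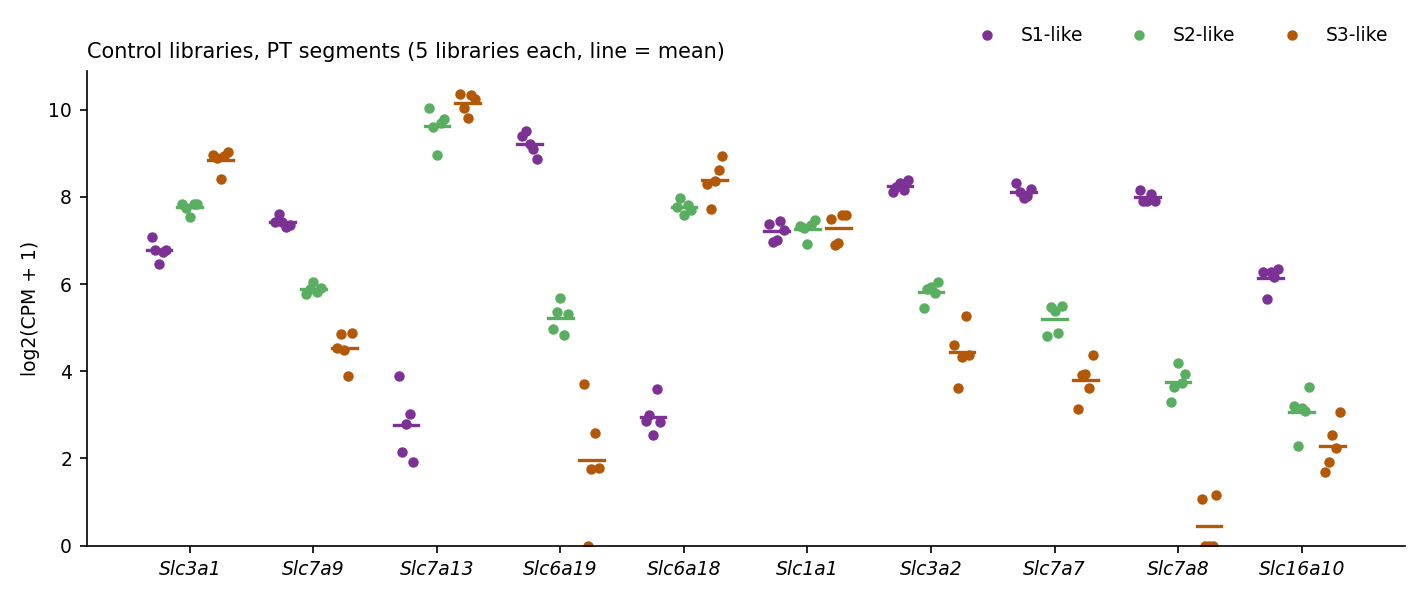
Level of each gene, as log2(CPM + 1) on the vertical axis, in S1-, S2- and S3-like PT cells of the 5 control libraries (points) with the mean of the log2 values (lines). *Slc3a1*, *Slc7a13* and *Slc6a18* are higher in S3- than in S1-like cells, *Slc1a1* overlaps in all 3, and the other 6 are higher in S1-like cells.

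The same division appeared cell by cell. After each control cell was thinned to 2000 UMIs, *Slc6a19* was detected in 68.5% ± 4.62 of S1-like cells and 0.270% ± 0.604 of S3-like cells, and *Slc7a13* in 2.24% ± 2.77 and 76.5% ± 3.06 (mean ± SD, n = 5). Control endothelial cells at this depth had 1.12% and 2.24%, so that the low ends were near or under the level of free RNA. Over the PT cells of a control library with at least 2000 UMIs (792 to 968 cells), *Slc3a2* was found in the same cell as *Slc7a8* at 1.93 to 2.26 times the rate that independent detection would give, and with *Slc7a7* at 1.54 to 1.99 times. *Slc3a1* shared cells with *Slc7a13* at 1.30 to 1.58 times that rate and with *Slc7a9* at 0.745 to 1.06 times (median 0.990). *Slc6a19* and *Slc6a18* were together at 0.107 to 0.436 times the independent rate, and *Slc7a9* and *Slc7a13* at 0.494 to 0.650 times. The heavy chains were therefore found with their partners at different rates, a description over cells that share libraries and segments.

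Across 12 control cell classes, the gene most like each member was sought among 7100 genes by the Pearson correlation of log2(CPM + 1), as a description. The closest to *Slc3a1* was *Khk* (fructose phosphorylation, r = 0.991), to *Slc7a13* *Acsm3* (0.989) and to *Slc6a18* *Cyp2d9* (0.987). For the genes of the early segment they were *Clec2h* for *Slc6a19* (0.976), with the glucose carrier *Slc5a2* second (0.965), and *Gatm*, a creatine synthesis enzyme, for *Slc7a7* (0.956). *Slc1a1* was closest to *Gk* (0.979) and *Slc7a9* to *Tmem150a* (0.959). The genes with levels outside the PT had looser matches, namely *Ubap2l* for *Slc3a2* (0.934), *Epb41l3* for *Slc16a10* (0.908) and *Plekhg3* for *Slc7a8* (0.859).

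**Figure D2:**
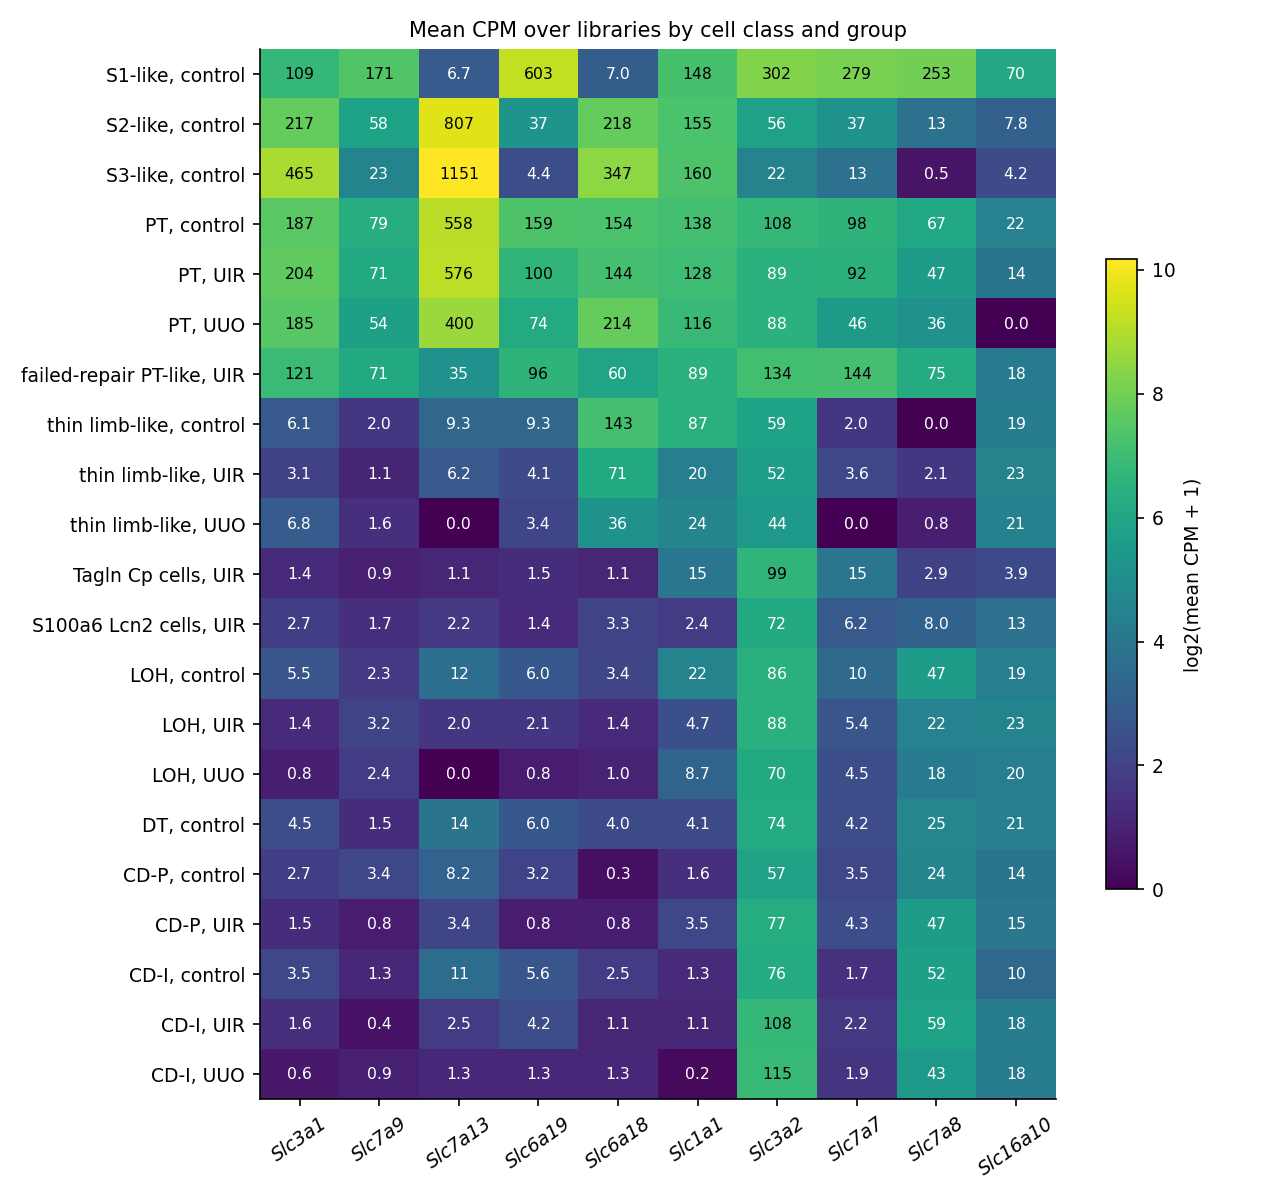
Mean CPM over libraries (number in each cell, color as log2(mean CPM + 1)) of each gene by cell class and group. Apart from *Slc3a2*, *Slc7a8* and *Slc16a10*, the genes have levels above 40 CPM only in PT and failed-repair PT-like cells, and *Slc6a18* and *Slc1a1* also in thin limb-like cells.

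The first comparison asked whether the PT cells that remain 28 days after ischemia carry the transporters at control levels. None of the 10 genes passed the threshold (edgeR's quasi-likelihood test on UMIs summed per library, adjusted p under 0.05 over all 10726 genes tested), where 3.97% of all genes did, 2.91% higher and 1.06% lower. DESeq2 called none of the 10 either, and 3 had an unadjusted p under 0.05 in edgeR. These 3, *Slc6a19*, *Slc7a8* and *Slc16a10*, were called with no filter on low counts or from 1000 UMIs per barcode, and the first 2 also at a mitochondrial limit of 15% (*Slc6a19* -1.31 ± 0.24, edgeR adjusted p = 0.00119) or with cells thinned. The median log2 fold change of the 10 was -0.13, against -0.02 over all genes tested. The apical genes of the later segments overlapped with controls. *Slc3a1* had 208, 173, 143, 198 and 212 CPM in the control libraries and 167, 246 and 199 in UIR, UIR1 and UIR2, a log2 fold change of 0.15 ± 0.17 (SE). *Slc7a13* had 750, 490, 314, 591 and 646 CPM in controls and 367, 756 and 604 in UIR (0.07 ± 0.30). *Slc6a18* had 163, 152, 120, 166 and 171 CPM in controls and 79.2, 182 and 170 in UIR (-0.08 ± 0.21), with library UIR below and UIR1 above every control. In all 3 the UIR libraries lay on both sides of the control mean.

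*Slc7a9* (70.7 to 88.2 CPM in controls, 61.6 to 78.0 in UIR, -0.16 ± 0.13) and *Slc1a1* (109 to 163 and 115 to 142, -0.09 ± 0.16) likewise overlapped. *Slc6a19* and the 4 basolateral genes had their lower values in UIR1 and UIR2. *Slc6a19* stood at 138, 202, 192, 131 and 132 CPM in controls and at 159, 60.7 and 80.2 in UIR, UIR1 and UIR2 (-0.68 ± 0.24, edgeR adjusted p = 0.146). Library UIR lay within the controls, and the other libraries of the group below all of them. *Slc7a8* had 59.7, 66.1, 77.5, 64.1 and 66.8 CPM in controls and 65.3, 30.7 and 45.6 in UIR (-0.53 ± 0.17, edgeR adjusted p = 0.104), and *Slc16a10* 20.1, 15.5, 24.9, 21.1 and 26.0 against 18.4, 10.8 and 14.0 (-0.61 ± 0.21, adjusted p = 0.126). In both, UIR1 and UIR2 were again below every control. *Slc3a2* (85.2 to 120 and 67.5 to 116 CPM, -0.29 ± 0.16) and *Slc7a7* (87.9 to 110 and 69.1 to 120, -0.09 ± 0.14) showed the same order of libraries, with overlap. Without library UIR, 2 members passed, *Slc6a19* (-1.18 ± 0.22, edgeR adjusted p = 0.00201) and *Slc7a8* (-0.83 ± 0.17, adjusted p = 0.00392).

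The makeup of the PT differed beside these values for S3-like cells, while the shares of S1- and S2-like cells overlapped. S1-like cells were 4.57% to 11.5% of PT cells in controls and 3.71% to 6.92% in UIR, S2-like cells 26.0% to 46.2% and 26.4% to 37.8%, and S3-like cells 4.33% to 7.58% and 8.60% to 22.6%. Segments also differed in depth. In control libraries the median was 10578 to 15696 UMIs per S1-like cell and 1027 to 1717 per PT cell of no segment. Within S1-like cells alone (79 in UIR), *Slc6a19* stood at 674, 729, 596, 545 and 470 CPM in controls and 512, 452 and 367 in UIR (-0.42 ± 0.15, edgeR adjusted p = 0.318), and none of the 9 members tested passed, where 0.702% of genes did. None passed within S2-like (10 tested, 2.64% of genes) or S3-like cells (6 tested, 2.7%) either, and the members with an unadjusted p under 0.05 in edgeR numbered 3 in S1-, 0 in S2- and 1 in S3-like cells. In the PT cells of no segment, *Slc6a19* was lower in UIR, at 134, 89.4 and 113 CPM against 190, 188, 190, 141 and 181 (-0.77 ± 0.15, edgeR adjusted p = 0.00469), with no overlap, and was the one member of 10 to pass, where 1.46% of genes did. Summed levels of 29 immune cell markers in the PT pools were 37 to 45.9 CPM for controls, 102 to 123 for UIR and 109 to 318 for UUO, highest in library UUO. The part of segment makeup, of depth and of immune transcripts in the values was not tested.

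The second comparison asked the same of the PT cells left after obstruction. Of the 10 genes, 2 were lower in UUO and none higher by the same test, where 0.82% of all genes passed, 0.261% lower and 0.559% higher. The median log2 fold change of the 10 was -0.82, against -0.12 over all genes. *Slc6a19* had 199, 11.5 and 13.0 CPM in UUO, UUO1 and UUO2, from 5, 2 and 3 UMIs (log2 fold change against control -2.95 ± 0.62, edgeR adjusted p = 0.0173). *Slc7a7* had 79.5, 28.7 and 30.2 CPM, from 2, 5 and 7 UMIs (-1.79 ± 0.37, adjusted p = 0.0156). For *Slc6a19* library UUO, with the fewest cells, lay among the controls and the other libraries far below them, whereas for *Slc7a7* all 3 were below the lowest control (87.9). DESeq2 called 4 members, these and *Slc7a8* and *Slc16a10*, and its share over all genes was not recorded. At a mitochondrial limit of 50%, *Slc7a7* was no longer called (-0.55 ± 0.18, edgeR adjusted p = 0.117), and *Slc6a19* was called at -1.01 ± 0.18. Fits within parts of the PT, or in thinned cells, held 1 UUO pool of at least 20 cells, that of UUO2, in place of 3, and took its spread to be that of the other groups. In the PT cells of no segment, *Slc6a19* was the one member of 10 called (-4.07 ± 0.75, edgeR adjusted p = 0.0143, where 0.345% of genes were), on 1 UMI in UUO2. No member passed in the PT cells outside the S1- and S3-like clusters, which add the S2-like cells, where *Slc6a19* was at -2.59 ± 0.89 and *Slc7a7* at -1.22 ± 0.45. None passed in PT cells thinned to 1000 UMIs, where *Slc7a7* was at -2.49 ± 1.04. The fitted value of *Slc6a19* there (-9.84 ± 2.42) rests on the 42 thinned cells of UUO2 and is not read as a fold.

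*Slc7a8* (79.5, 11.5 and 17.3 CPM, -2.04 ± 0.50, edgeR adjusted p = 0.0614) and *Slc3a2* (159, 63.2 and 43.2 CPM, -1.08 ± 0.34, adjusted p = 0.190) were also highest in library UUO and did not pass by this test. *Slc16a10* had no UMI among the 430848 of the 3 UUO pools, which with a floor of 3 counts over the group is at least 3.11-fold lower than the summed control level of 21.6 CPM. Its edgeR adjusted p was 0.0653. All 3 genes were called with no filter on low counts, and *Slc7a8* (edgeR adjusted p = 0.0219 to 0.0286) and *Slc16a10* (0.00821 to 0.0429) with any 1 control set alone and without Ctrl, N2, UIR or UIR1. *Slc6a19* and the 4 basolateral genes, all highest in S1-like cells of controls, thus lay below every control in UUO1 and UUO2. *Slc7a9*, also highest in S1-like cells of controls, lay below every control in UUO1 and within them in UUO2 (46.0 and 77.7 CPM against 70.7 to 88.2).

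The other 5 apical genes were within or on both sides of the control range in the same pools, or reached it in 1 of them. *Slc3a1* had 119, 224 and 212 CPM (-0.07 ± 0.25) and *Slc6a18* 238, 287 and 117 (0.12 ± 0.33), so that *Slc6a18* was above every control in UUO and UUO1. *Slc7a13* had 199, 747 and 255 CPM (-0.56 ± 0.37), *Slc7a9* 39.7, 46.0 and 77.7 (-0.56 ± 0.29) and *Slc1a1* 79.5, 172 and 95 (-0.35 ± 0.27). None of these 5 passed the test, on 1 to 130 UMIs per pool.

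No S1-like cell was found among the 95 PT cells of UUO pooled over the 3 libraries, for which counting error alone allows a share of up to 3.16%. Of these cells, 51 fell into no segment and may include S1 cells. The bound therefore covers the S1-like cluster and not S1 cells as such. PT cells had a median of 971, 4072 and 2116 UMIs in UUO, UUO1 and UUO2, and the part of depth in the segment names was not tested. S2-like cells were 0% to 50% and S3-like cells 7.84% to 20.8%. Fewer S1-like cells and a lower level per cell can therefore not be told apart for the S1-weighted genes. In S2-like cells, 1 UUO library (UUO2) had a pool, of 20 cells and 147916 UMIs, and the S1-weighted genes went both ways there. *Slc6a19* had 13.5 CPM against 27.5 to 50.4 in controls (log2 fold change -1.62 ± 1.27). *Slc3a2* had 33.8 against 42.5 to 64.7, and *Slc16a10* 0 against 3.90 to 11.5. *Slc7a7*, at 27.0, was at the low end of the controls (27.0 to 44.1). *Slc7a9* (94.7 against 53.5 to 65.0) and *Slc7a8* (20.3 against 8.80 to 17.2) lay above every control. Without library UUO1, or without UUO2, none of the 10 genes passed in PT, with *Slc6a19* at -2.55 and -2.52 and *Slc7a7* at -1.72 and -1.85, and without library UUO the same 2 did. Between UUO and UIR, edgeR called 0 of the 10 members and 0% of the 10726 genes, DESeq2 called none, and 5 members had an unadjusted p under 0.05 in edgeR (*Slc7a7* -1.70 ± 0.38, *Slc6a19* -2.27 ± 0.68, *Slc16a10*, *Slc7a8* and *Slc3a2*).

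**Figure D3:**
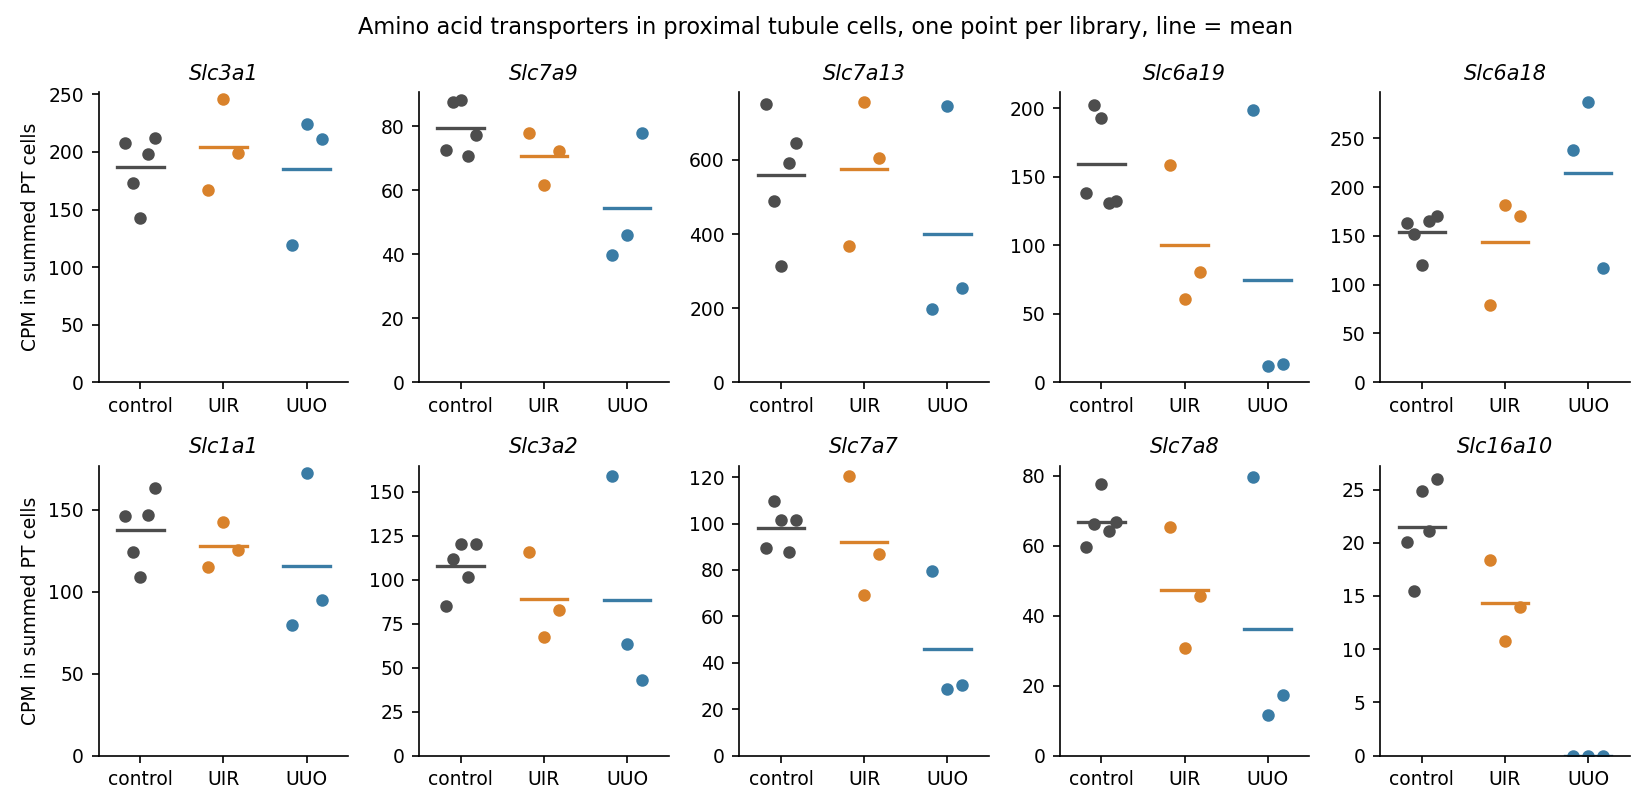
CPM of each gene in the summed PT cells, with 1 point per library and the group mean as a line, from an axis that starts at 0. UIR1, UIR2, UUO1 and UUO2 lie low for *Slc6a19*, *Slc7a8* and *Slc16a10*, and the groups overlap for *Slc3a1*, *Slc7a13* and *Slc1a1*.

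**Figure D4:**
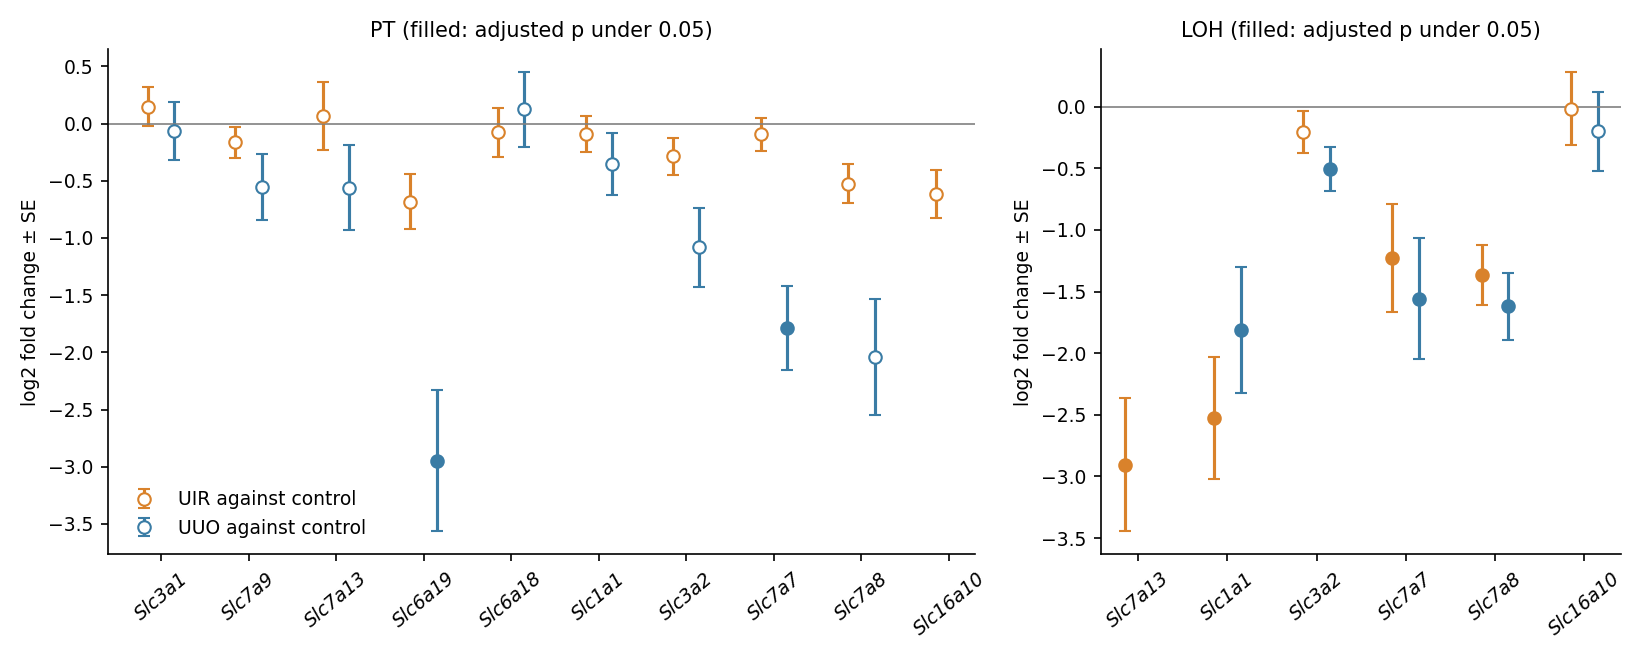
Log2 fold change against control with its SE (edgeR) in PT (left) and loop of Henle cells (right), filled where the adjusted p was under 0.05. *Slc16a10* in PT and *Slc7a13* in loop of Henle cells of UUO had no UMI and are not drawn.

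Whether fewer cells had the transcript was asked in PT cells thinned to 1000 UMIs each, with 97 to 539 shallower cells left out per control library, 62 to 142 per UIR and 6 to 11 per UUO library. In 3 of the 10 genes every UIR library lay below every control, where 4.79% of genes seen in at least 1% of control PT cells did so. The count was 0 at a mitochondrial limit of 50% and 1 at 15% or with each cell named on its own. *Slc6a19* was found in 7.03% ± 1.63 of UIR and 11.2% ± 1.84 of control PT cells, *Slc7a8* in 3.34% ± 1.46 and 5.72% ± 0.270, and *Slc16a10* in 1.03% ± 0.382 and 1.82% ± 0.230 (mean ± SD, unadjusted exact permutation p = 0.0357 each, two-sided, the smallest that 5 against 3 libraries allow). Without thinning the shares were 16.5% ± 2.08 and 26.9% ± 3.04 for *Slc6a19*, 12.5% ± 2.68 and 18.6% ± 3.14 for *Slc7a8*, and 6.26% ± 0.921 and 9.92% ± 2.37 for *Slc16a10*, the last with overlap. In endothelial cells at the same depth, *Slc6a19* was found in 1.22% (control) and 0.576% (UIR), and *Slc7a8* and *Slc16a10* each in 0.153% and 0.0720%, with medians of 4437 and 3994 UMIs per endothelial cell and 3370 and 2708 per PT cell. The PT shares lay above these levels. Macrophages at the same depth, which carried both genes themselves, had *Slc7a8* in 2.20% and 2.62% and *Slc16a10* in 1.57% and 2.06%, the last of these above the PT share of UIR, and their part in the PT shares was not tested. In UUO, *Slc1a1* (3.44% ± 3.01 against 10.1% ± 2.16) and *Slc16a10* (0 of 69 cells pooled over the 3 libraries, for which counting error alone allows up to 4.35% of thinned cells with a UMI) lay below every control, where 19.5% of genes did so, on 9, 18 and 42 cells per library. The members called lower in PT of UUO, *Slc6a19* and *Slc7a7*, overlapped with controls in these shares. They were found in 11.9% ± 18.6 and 5.29% ± 5.57 of thinned UUO cells, against 11.2% ± 1.84 and 9.03% ± 0.885 in controls. Without thinning, the shares also vary with depth, and PT cells had a median of 1908 UMIs in UUO and 3370 in controls. There 5 members lay below every control, namely *Slc1a1*, *Slc16a10*, *Slc7a7*, *Slc7a8* and *Slc7a9*. The share of all genes that did so was not computed, so this count is not read as a result about the members. *Slc6a19* overlapped there too (11.7% ± 11.6 against 26.9% ± 3.04).

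Failed-repair PT-like cells, which kept PT genes beside the injury markers *Vcam1* and *Cp*, carried all 10 transporters. They numbered 395 in UIR and 82 in UUO against 10 in controls, and their pools of at least 20 cells came from the 3 UIR libraries and UUO1. *Vcam1* had a mean of 698 CPM in UIR and 701 in UUO1, and *Lrp2* 801 and 697. *Slc6a19* stood at 104, 85.2 and 98.6 CPM in UIR, UIR1 and UIR2 and at 50.9 in UUO1. *Slc7a7* had 150, 138 and 145 CPM in UIR libraries and 80.5 in UUO1, *Slc7a8* 81.0, 81.2 and 63.5 against 43.3, and *Slc3a2* 145, 142 and 116 against 105. These 4, of the 6 genes highest in S1-like cells of controls, were lower in UUO1 than in every UIR library. The other 2 were not, with *Slc7a9* at 63.6 to 82.2 CPM in UIR and 82.7 in UUO1, and *Slc16a10* at 11.6 to 23.6 and 21.3.

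The S3-weighted genes of the same cells had the reverse order. *Slc6a18* stood at 46.3, 60.6 and 72.3 CPM in UIR and at 152 in UUO1 (log2 fold change 1.23 ± 0.25, edgeR adjusted p = 0.0182), and was the one member of 10 that passed, where 0.748% of genes did. *Slc7a13* had 23.1, 24.4 and 56.9 CPM against 91.8 (1.39 ± 0.35, adjusted p = 0.0795), and *Slc3a1* 104, 132 and 126 against 183. *Slc1a1* had 104, 83.5 and 79.9 CPM against 122. This comparison rests on 1 UUO library, whose own spread is not known and is assumed to be that of the UIR libraries, so that it compares these libraries rather than the conditions. The androgen-regulated PT transcript *Kap*, itself highest in S3-like cells, stood at 7653 CPM in UIR and 18440 in UUO1, and its part in the result was not tested. In all cells of the failed-repair class together, 0 of the 10 members and 0% of 9513 genes differed between UUO and UIR in edgeR, with 0 members at an unadjusted p under 0.05 and 0 in DESeq2. That class also held the thin limb-like cells described below (212 of 607 cells in UIR and 84 of 166 in UUO), so its result is not about failed-repair PT-like cells alone.

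Against the PT cells of the same UIR libraries, the failed-repair PT-like cells had less *Slc7a13* in each library (23.1, 24.4 and 56.9 against 367, 756 and 604 CPM) and less *Slc3a1* (104, 132 and 126 against 167, 246 and 199). *Slc7a7* was higher in them in each library (150, 138 and 145 against 120, 69.1 and 86.8). These pairs of pools come from 1 clustering and are given without a test.

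Thin limb-like cells were placed in the failed-repair class by its listed markers and made up 71 of its 81 control cells. Their summed level of *Vcam1* was 4.79 CPM in controls, 129 in UIR and 159 in UUO, and that of *Cp* 405, 529 and 608. The class name is therefore not read as failed repair for these cells. They were named by the urea transporter *Slc14a2* among their markers and carried 2 of the apical genes. *Slc6a18* stood at 198 and 87.0 CPM in the 2 control libraries with a pool (Ctrl and AN2), 70.3, 25.2 and 116 in UIR and 42.7 and 28.8 in UUO and UUO1 (UIR against control -1.04 ± 0.44, edgeR adjusted p = 0.233, and UUO -1.95 ± 0.57, adjusted p = 0.0568). *Slc1a1* had 76.9 and 96.7 CPM in controls, 26.2, 13.9 and 20.1 in UIR (-2.10 ± 0.40, edgeR adjusted p = 0.00357) and 11.1 and 36.0 in UUO (-2.15 ± 0.48, adjusted p = 0.0127). *Slc1a1* was below both controls in every injured library and was the one member of 4 tested that passed, where 4.81% (UIR) and 4.9% (UUO) of genes did. The class's own markers differed between the groups too, with a mean of 5727 CPM of the water channel *Aqp1* in controls and 1026 in UIR, with UUO lower still, and of 1504, 518 and 478 of *Bst1*. In the pools of all failed-repair cells, which hold these, free RNA was estimated from markers of non-tubular cells. It was 16.8% (Ctrl) and 59.4% (AN2) of UMIs, against 12.2% to 22.6% after ischemia and 6.47% to 10.2% after obstruction. The part of either in the result was not tested. In the 2 control pools 67 UMIs of *Slc6a18* stood beside 3 of *Slc3a1*, whereas PT cells of Ctrl held 1837 beside 2339.

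The injured kidneys also held clusters that kept no class name when the tubular cells other than PT were clustered again, of which 2 are given here by their leading genes. In cells led by *Tagln* and *Cp*, which had been named failed-repair among all cells (127 in UUO, 0 in controls and the rest in UIR), *Slc3a2* had 86.1 to 111 CPM in UIR and 131 and 100.1 in the UUO libraries with a pool (UUO and UUO1), and *Slc7a8* had at most 3.98. In cells led by *S100a6* and *Lcn2* (252 in UIR, 353 in UUO, 0 in controls), *Slc3a2* had 57.5 to 77.1 CPM, *Slc16a10* 10.1 to 15.3 and *Slc7a8* 4.82 to 8.61. The 6 apical genes had at most 16.5 CPM in the first and 6.80 in the second, both of them *Slc1a1*.

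In the loop of Henle (LOH) cells, 6 of the 10 genes passed the filter on low counts. Free RNA from broken PT cells reaches every droplet, so the count of each gene was set beside that of a fixed list of PT genes in the empty droplets. *Slc7a13* had a median of 1.10 times the free RNA level in control LOH pools, and *Slc1a1*, *Slc7a8* and *Slc3a2* had 7.84, 22.8 and 41.7 times. Values of *Slc7a13* in control LOH cells were therefore at background, and the other 3 above it.

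Against control, 4 members were lower in LOH cells of UIR and 5 in UUO and none was higher, where 30.5% and 31.6% of all 10145 genes passed, 15.2% and 15.4% lower and 15.3% and 16.2% higher. *Slc7a8* had 39.3, 37.7, 44.8, 81.9 and 29.8 CPM in controls, 21.6, 25.8 and 18.8 in UIR (-1.36 ± 0.25, edgeR adjusted p = 7.55e-05) and 16.1, 22.8 and 15.1 in UUO (-1.62 ± 0.27, adjusted p = 2.84e-05). *Slc1a1* had 24.9, 23.6, 10.5, 22.6 and 29.8 CPM in controls, 3.92, 6.63 and 3.43 in UIR (-2.53 ± 0.50, adjusted p = 2.18e-04) and 0.825, 8.66 and 16.6 in UUO (-1.81 ± 0.51, adjusted p = 0.00717). For *Slc7a8* both injured groups lay below every control, whereas 1 UUO library reached the control range for *Slc1a1*. The calls of both genes held in both injuries when the free RNA was subtracted. With the Ctrl library as the only control, neither gene was called in either injury, at -1.06 (UIR) and -1.32 (UUO) for *Slc7a8* and -2.64 and -1.92 for *Slc1a1*. *Slc1a1* was also not called with the N set alone (-1.95 ± 0.98 and -1.23 ± 0.96) or, in UUO, the AN set alone (-2.05 ± 0.76).

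*Slc7a7* was lower in UIR (-1.23 ± 0.44, edgeR adjusted p = 0.0324) and UUO (-1.56 ± 0.49, adjusted p = 0.0155), at 2.82 to 16.6 CPM in controls and 3.15 to 6.46 in the injured libraries, with overlap, and neither call held after the subtraction, which left log2 fold changes of -1.17 ± 0.55 and -1.34 ± 0.61. The UIR call was also lost without Ctrl, N1, N2, UIR or UIR2, and the UUO call without Ctrl, N2 or UUO1. Against the AN controls alone the values were 0.10 ± 0.81 in UIR and -0.23 ± 0.86 in UUO, and neither was called. *Slc7a13*, at the free RNA level in controls, was lower in UIR (-2.91 ± 0.54, adjusted p = 1.42e-04, and -1.95 ± 1.07 and not called with the N controls alone) and had 0 UMIs in UUO, at least 27.1-fold lower than in controls at a floor of 3 counts over the group. *Slc3a2* was lower in UUO only by the test (-0.50 ± 0.18, adjusted p = 0.0322, and -0.21 ± 0.17 in UIR, adjusted p = 0.388), and the contrast between UUO and UIR did not pass (-0.30 ± 0.15, adjusted p = 0.830, where 0.641% of genes did). The call was lost without N1, N2, AN2, UUO1 or UUO2, with no filter on low counts, with the N controls alone and at a mitochondrial limit of 50% (-0.22 ± 0.14), and against Ctrl alone the value was 0.11 ± 0.27. *Slc16a10* had 7.91 to 27.1 CPM in controls, against 21.9 to 25.2 after ischemia (-0.02 ± 0.30) and 12.2 to 24.3 after obstruction (-0.20 ± 0.32). The median mitochondrial share of LOH cells was 18.2% to 24.6% in controls and 9.09% to 12.1% in injured libraries, and its part in these values was not tested.

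In collecting duct principal cells, 3 members were tested. *Slc7a8* was higher in UIR, at 55.0, 46.0 and 39.8 CPM against 26.9, 17.7, 29.7, 20.8 and 26.2 in controls (0.87 ± 0.24, edgeR adjusted p = 0.0228), with no overlap, where 7.65% of genes passed and 4.01% were higher. DESeq2 did not call it (adjusted p = 0.172), nor did edgeR without N1, AN1, UIR or UIR1 (0.0562 to 0.0930), with any 1 control set alone, at a mitochondrial limit of 15% or from 1000 UMIs per barcode. The call was lost in these 10 alternatives and held in 11. Among the latter were a mitochondrial limit of 50% (1.83 ± 0.18) and each cell named on its own (1.52 ± 0.19). Its log2 fold change lay between 0.29 and 2.35 over the alternatives. The class marker *Aqp2* had a mean of 8824 CPM in controls, 3649 in UIR and 328 in the UUO pool, and its part in the result was not tested. The direction of *Slc7a8* there was opposite to that in LOH cells, and the difference between the classes was not tested. The 1 UUO pool had 33.0 CPM (0.39 ± 0.33, adjusted p = 0.443, where 23.7% of genes passed). In intercalated cells none of 3 members passed (1 in each injury at an unadjusted p under 0.05, and 0 in DESeq2), where 13.6% (UIR) and 25.6% (UUO) of genes did, with *Slc7a8* at 38.7 to 71.2 CPM in controls, against 49.1 to 74.4 after ischemia and 38.5 to 52.2 after obstruction (UUO -0.55 ± 0.22, adjusted p = 0.0714). In distal tubule cells, where 1 UIR library and no UUO library had a pool, none of 5 members passed (0.47% of genes), 0 at an unadjusted p under 0.05 and 0 in DESeq2.

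Summed over all kept cells of a library, as a bulk measurement would be, the 10 genes had 1168, 1098, 954, 1160 and 1212 CPM in controls. The UIR libraries had 299, 426 and 287 CPM, and those of UUO 180, 206 and 193. The injured libraries did not overlap with the controls, and UIR had 30.2% and UUO 17.2% of the mean of controls (1118 ± 101, SD, n = 5). In such a sum, fewer PT cells and less RNA per cell cannot be told apart. With PT cells and the PT sub-clusters led by markers of other classes left out, the ratio to control was 1.14 (UIR) and 0.957 (UUO). Failed-repair PT-like cells stayed in this sum (10 in controls, 395 in UIR and 82 in UUO).

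Of the single genes, 8 lay below every control in each UIR library, where 17.3% of genes did so, and 9 in each UUO library, where 20.9% did. The lowest ratios to control were those of *Slc6a19* (0.143 in UIR and 0.0131 in UUO) and *Slc7a13* (0.151 and 0.0132). *Slc7a8* kept 0.584 and 0.440 and *Slc16a10* 0.776 (14.5, 14.5 and 12.9 CPM against 13.6 to 21.3, overlapping) and 0.708. *Slc3a2* was the exception, at 90.2 to 116 CPM in controls, 115 to 122 in UIR (ratio 1.11, exact permutation p = 0.0714) and 116 to 130 in UUO (1.15, p = 0.0357, two-sided, the smallest possible), above every control in UUO, where 55.6% of genes were. In controls 59.0% to 71.4% of all *Slc3a2* UMIs and 97.0% to 99.2% of all *Slc3a1* UMIs came from PT cells, and in UUO 0.114% to 0.327% and 10.7% to 50.5%.

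**Figure D5:**
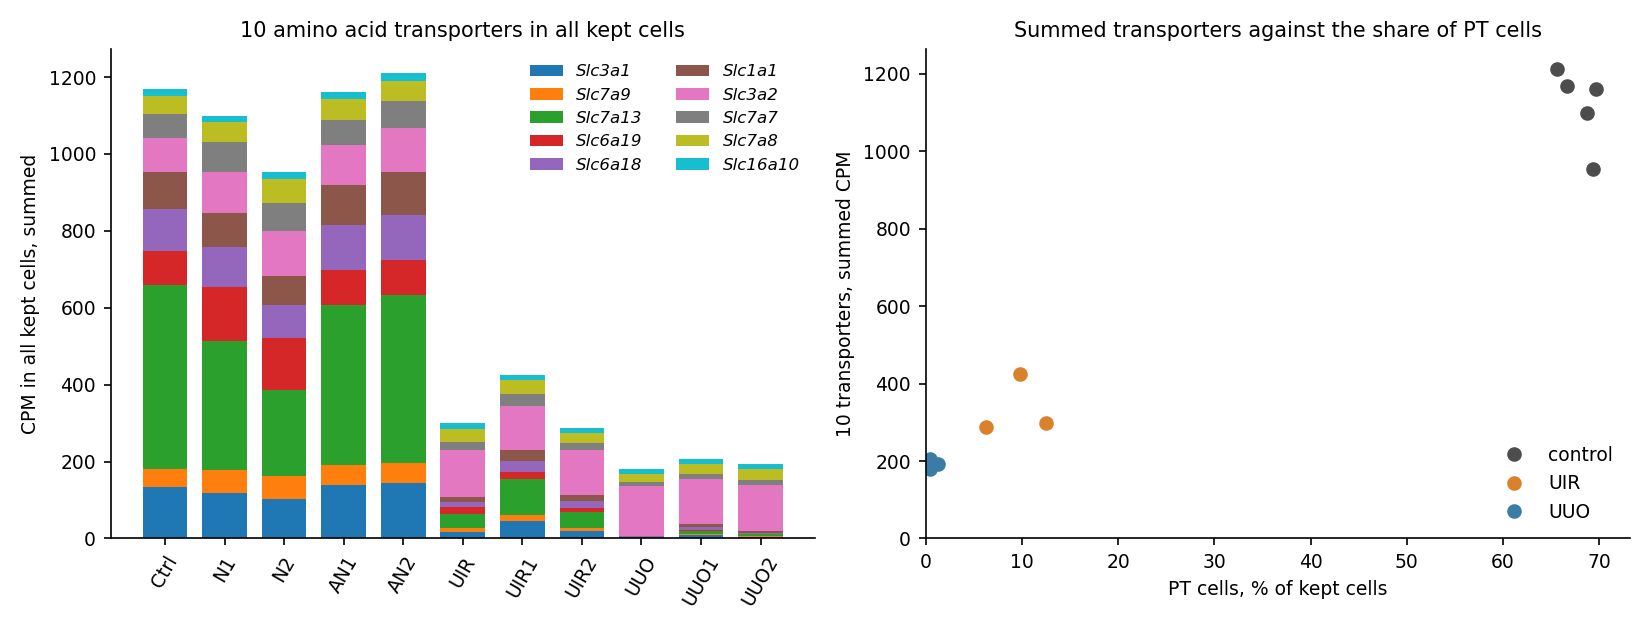
Left, CPM of the 10 genes in the sum of all kept cells, stacked by gene for each library. Right, their sum against the percentage of kept cells that were PT, where control libraries sit at 954 to 1212 CPM, UIR at 287 to 426 and UUO at 180 to 206.

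Other genes of amino acid handling were taken from fixed lists. The carrier partner *Tmem27* (collectrin, which brings *Slc6a19* and *Slc6a18* products to the apical membrane) did not pass in PT, and had 1130 to 1378 CPM in controls, 1117 to 1212 in UIR and 238, 1143 and 1149 in UUO. Library UUO, whose PT pool was the smallest, was the one that stood low.

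Of 52 other amino acid and peptide transporters, 23 were tested in PT, of which 1 was higher and 1 lower in UIR, where 3.97% of all genes passed, and 1 higher in UUO, where 0.82% did. *Slc7a12*, a relative of the light chains, rose in both, at 3.29, 6.01, 2.36, 3.72 and 5.60 CPM in controls, 12.7, 63.4 and 25.9 in UIR (3.14 ± 0.48, edgeR adjusted p = 1.88e-04) and 39.7, 482 and 25.9 in UUO (5.46 ± 0.72, adjusted p = 2.09e-04). All injured libraries were above all controls, although library UUO held 1 UMI and UUO2 held 6. *Slc43a2*, an efflux carrier of neutral amino acids, fell in UIR (69.7 to 92.8 CPM in controls, 73.1, 39.8 and 41.5 in UIR, -0.73 ± 0.17, adjusted p = 0.0154). As with *Slc7a8*, UIR1 and UIR2 were the low libraries.

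Of 8 PT regulators, 1 was lower in UIR (3.97% of all genes passed there) and none passed in UUO. This was *Hnf4g*, a nuclear receptor of the HNF4 family, at 17.3 to 25 CPM in controls and 7.35, 10.8 and 11.9 in UIR (-1.03 ± 0.18, edgeR adjusted p = 8.18e-04), with no overlap. Of 14 amino acid response genes, 11 were tested in PT and none passed in either injury. In LOH cells, 3 of 20 other transporters tested were higher and 4 lower in each injury, a share near the 30.5% (UIR) and 31.6% (UUO) of all genes that passed. UIR and UUO share their control libraries in these counts.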

How the data were processed

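Single-cell suspensions of mouse kidney were sequenced as 10x libraries, and the authors deposited raw UMI counts per gene and barcode for every barcode, made against GRCm38 (Cell Ranger 3.1.0 in the submitters' processing notes). These counts had not been corrected for ambient RNA or doublets, although the study's methods name decontX and doubletFinder.

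From the deposited counts, cells were called against empty droplets (at least 500 UMIs, false discovery rate 0.01), and barcodes over 30% mitochondrial or 5% hemoglobin UMIs or under 200 genes were removed, as were the 7.5% of cells with the highest doublet scores. Cells were clustered on 2000 variable genes without the 10 members (40 principal components, 20 neighbors, Leiden resolution 1). Clusters were named by listed markers, with limits set after the marker levels had been seen. UMIs were summed per library and class for pools of at least 20 cells and tested across all genes with edgeR's quasi-likelihood test (TMM factors, filterByExpr, Benjamini-Hochberg adjustment). CPM are the UMIs of a gene per 1000000 UMIs of the pool. Each fit took all libraries with such a pool (all 11 in PT and LOH, fewer in other classes), so UIR and UUO share their controls and 1 estimate of spread. Shares of cells were compared by exact permutation tests. Intervals and floors cover counting error only. Free RNA was estimated from empty droplets, scaled by a list of PT genes without the members. In PT and failed-repair pools it was scaled by markers of non-tubular cells instead.

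All 10 members are reported. Genes of other lists are named where they passed the test in PT, and *Tmem27* is given as a partner. Most of those that passed in other classes are not named. The members, lists and tests were chosen with earlier results of these data known. *Cltrn* is listed in the files as *Tmem27*. The test was checked on simulated counts. Alternatives were DESeq2, no filter, other limits on cells, other clustering, naming by cell, 1 control set at a time, leaving out each library, and a replicate block.

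Software was Python 3.11.15 (numpy 2.4.6, scipy 1.17.1, pandas 2.3.3, scikit-learn 1.9.0, igraph 0.11.9, leidenalg 0.10.2) and R 4.3.3 (edgeR 4.0.16, limma 3.58.1, DESeq2 1.42.0). Promoter windows came from RefSeq.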

Additional observations from a re-analysis of the deposited data

Results flagged for a closer look

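Of the 51 sets of 5 control libraries examined for a library that stands apart (Dixon's test), 2 passed its 95% critical value of 0.710, where chance passes about 1 in 20. In S3-like cells, *Slc3a1* was low in N2, at 341 CPM against 473 in the nearest control library. In LOH cells, *Slc7a8* was high in AN1, at 81.9 CPM against 44.8 in the nearest.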

How the results depend on the processing

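The number of members called in PT of UIR was 0 in the report and 3 with no filter on low counts or from 1000 UMIs per barcode, 2 at a mitochondrial limit of 15% or with cells thinned, 1 with the N controls alone, with sub-clusters led by markers of other classes or in cells of no segment, and 0 to 2 when 1 library was left out. In PT of UUO it was 2, and 4 with DESeq2, the replicate block, any 1 control set or those sub-clusters, 5 with no filter, from 1000 UMIs or with each cell named on its own, 6 with failed-repair PT-like cells added, 1 at a limit of 50%, 0 outside S1- and S3-like cells or thinned, and 0 to 4 without 1 library. Between UUO and UIR it was 0, and 2 with no filter or the Ctrl control alone, 1 with each cell named on its own, and 0 without any 1 library. In the other tubular classes, 5 calls in UIR became 1, 3 and 2 (N, AN and Ctrl controls alone), 2 and 10 (limits of 15% and 50%), 3 (1000 UMIs), 8 (each cell named), 3 (free RNA subtracted) and 3 to 5 (without 1 library). For UUO, 5 became 10 (no filter, a limit of 50% or each cell named), 9 (resolution 2), 3 (N or Ctrl alone, or free RNA subtracted) and 3 to 6 (without 1 library). In all failed-repair cells it was 0 without any 1 library. The summed level of the 10 genes, as a ratio to control, was 0.302 and 0.172 and became 1.14 (reversed) and 0.957 without PT cells, and 0.262 to 0.324 and 0.166 to 0.178 without 1 library. The members whose shares of PT cells did not overlap numbered 3 in UIR, 1 at 15%, 0 at 50%, 1 with each cell named, and 3 to 4 without 1 library. In UUO they numbered 2, 5 unthinned or at 15%, 4 at 50%, and 2 to 5 without 1 library. Among single genes, 683 values were the same, 50 became significant, 50 lost significance, 71 changed sign with no call on either side, and 2 called values reversed, which were *Slc7a7* in LOH of UIR against AN alone (0.10) and *Slc3a2* in LOH of UUO against Ctrl alone (0.11). The cause of these changes was not tested.

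Replicate numbers were not taken to pair the libraries. Same-numbered UIR and UUO pools correlated at -0.007, 0.287 and -0.238 in PT and at 0.708, 0.291 and 0.269 in LOH, where pools of unlike number also reached 0.367 and 0.480 and same-numbered injured and control pools lay at -0.236 to 0.179. The 0.708 is that of libraries UIR and UUO, which carry no number. In LOH each of them correlated at -0.423 to -0.547 with the numbered pools of the other injury. The replicate block gave 0 (UIR) and 4 (UUO) calls in PT and 5 and 7 in the other tubular classes. In PT of UUO it added *Slc7a8* (-2.05 ± 0.49, edgeR adjusted p = 0.0360) and *Slc16a10* (adjusted p = 0.0272), and no LOH call changed. The calls it added for UUO in the other tubular classes therefore lay in collecting duct cells.

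The UUO comparison in PT rests on 95 cells, and the number of UMIs limits its precision. The controls were 3 named sets of libraries, and whether UIR and UUO libraries were run with any of them is not stated in the sources used here.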
